A study of Homo sapiens with 6 samples.

Results

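The genes described here encode histone deacetylases and other chromatin enzymes, chosen by gene symbol: the HDAC and SIRT deacetylases, the KAT acetyltransferases with CREBBP, the KMT, SETD, NSD, EZH and EHMT lysine methyltransferases, the KDM lysine demethylases, and the DNMT and TET enzymes of DNA methylation. Of 14232 genes tested, 62 were taken, after the rule had set aside 2 genes on chromosomes 8 or 13 and 1 further gene. Expression values entered the rule only in keeping the row with the highest mean for each gene. Classes were also assigned by symbol, whether or not each product has the activity its class is named for. The set was chosen with earlier results of these data known. The cells were Ishikawa H, an established line from a well differentiated endometrioid adenocarcinoma, whose labels give a p53 mutation written G186T in every sample. The design set 3 MTDH knockdown samples, which stably carried a short hairpin RNA targeting MTDH, against 3 MTDH control samples, with an array for each. MTDH encodes metadherin, a membrane-associated protein known for its part in chemoresistance. Titles and methods call the 3 samples of a group biological replicates. The labels also say that individual puromycin-resistant clones were expanded, without saying how many clones or separate cultures a group holds, so the p-values reflect sample-to-sample spread that may be technical, and MTDH depletion and a difference between clones cannot be told apart. The labels describe the controls only as control cells, while the paper's table legends for this line describe them as expressing a control short hairpin RNA. No drug is named for any array. Each value is a log2 expression level of 1 transcript cluster, the set of probes that reads 1 transcribed locus.

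Histone acetylation loosens the hold of histones on DNA and marks active genes, and deacetylases remove it. The HDAC enzymes need zinc and fall into classes: class I is mainly nuclear and works in corepressor complexes, class II includes enzymes that move between nucleus and cytoplasm, and HDAC11 alone forms class IV. Sirtuins are deacetylases that use NAD. Methyl groups on histone lysines are written and erased by separate enzyme families, and DNA methylation is set by DNMT enzymes and undone through oxidation by TET enzymes. The study combined MTDH depletion with the HDAC inhibitor LBH589 in another endometrial cancer line, and the arrays give the RNA levels of the drug's target enzymes in knockdown and control cells of this line.

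MTDH was lower in each knockdown array than in any control array, at 6.89, 7.04 and 6.63 for the controls against 5.77, 5.89 and 5.84 after knockdown in log2 units (log2 fold change -1.02, 95% interval -1.39 to -0.64, limma adjusted p = 0.029). The adjusted p was 0.16 with control replicate 1 left out, and 0.15, 0.12 and 0.11 with knockdown replicate 1, 2 or 3 left out. Control replicate 3 stood apart: its correlations with the other arrays across genes ran from 0.900 to 0.955, whereas pairs among the other 5 arrays ran from 0.959 to 0.980. The columns had median log2 values between 4.57 and 4.82. The epithelial marker EPCAM had means of 7.26 in controls and 7.62 after knockdown, and the endometrial marker PAX8 7.22 and 7.10, while ESR1, the estrogen receptor alpha gene, was low at 3.62 and 3.42. Of the 7 epithelial markers none passed the test, 1 was higher without overlap and 2 were lower without it, KRT8 at 8.65 and 8.10 and KRT19 at 6.96 and 6.10 (limma adjusted p = 0.22 and 0.084), and their part in the results below was not tested. PTPRC of blood cells and PECAM1 of endothelium were low at 2.44 and 3.16 in controls, and at 2.47 and 3.22 in knockdown arrays. Other markers of these lists read higher, up to 4.31 for CD14 and 4.05 for VWF in controls (4.04 and 3.85 after knockdown). Of 7 stromal markers, 1 had a mean above every array median, COL1A1 at 5.23 and 4.86, while VIM had 3.71 and 3.58.

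None of the 62 chromatin enzyme genes changed at an adjusted p under 0.05 (limma, Benjamini-Hochberg over all genes), where 0.597% of all genes tested did. At an unadjusted p under 0.05 there were 9 members, or 14.5%, against 14.1% of all genes. The lowest adjusted p of a member was 0.216, for HDAC2. No member reached a 2-fold difference, which 0.963% of all genes did, and the log2 fold changes of knockdown against control lay between -0.60 and 0.80. In 28 members the value was above 0 (45.2%, against 39.3% of all genes) and in 34 below, with a median of -0.03 beside -0.08 over all genes. The 95% interval reached a median of 0.42 to either side of the estimate on the log2 scale. For 55 of the 62 genes (88.7%, against 88% of all genes) it lay wholly within a 2-fold change in either direction. In 17 members, or 27.4%, the values of the groups were fully separate, as they were in 20% of all genes. Knockdown was higher without overlap in 8 of the 62 (12.9%, against 8.81% of all genes) and lower in 9 (14.5%, against 11.2%). Single arrays moved the count of 9. Leaving out control replicate 2 gave 20 members (32.3%, against 23.2% of all genes in that fit). Leaving out knockdown replicate 1 gave 3 (4.84%, against 10.8%) and leaving out knockdown replicate 2 gave 1 (1.61%, against 7.17%).

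**Figure D1:**
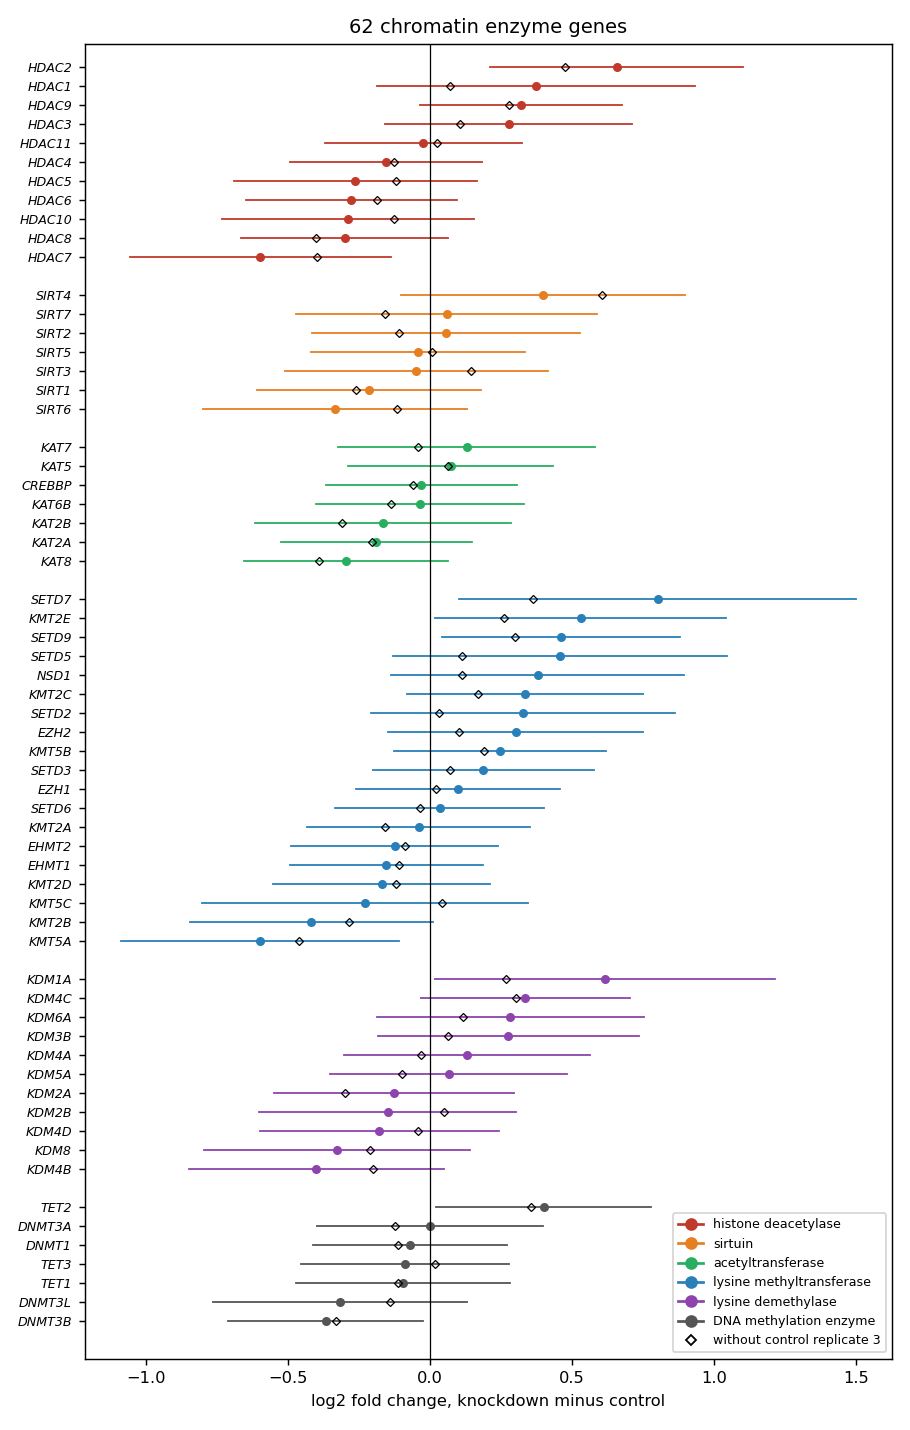
Log2 fold change of knockdown against control for the 62 genes, grouped and coloured by enzyme class (x axis, log2 units; filled points with 95% limma intervals; open diamonds, the value without control replicate 3). Values run from -0.60 to 0.80, and 9 intervals leave out 0, none of which passes the adjusted test.

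Of the 4 class I deacetylases 3 had positive log2 fold changes, in the deposited values as well as after quantile normalization and after centring. HDAC1, HDAC2 and HDAC8 had mean log2 values above 6 and HDAC3 5.79. In the deposited values 1912 of the 2731 genes above 6 were positive, and 3680 of the 11501 dimmer genes. HDAC2, with HDAC1 a catalytic subunit of the SIN3, NuRD and CoREST corepressor complexes, read 7.28, 7.51 and 6.85 in the controls against 7.83, 8.07 and 7.72 after knockdown. All 3 knockdown values lay above all 3 controls. Its mean went from 7.22 ± 0.34 to 7.87 ± 0.18 (SD, n = 3 each). The log2 fold change was 0.66 ± 0.20 (SE), with a 95% interval of 0.21 to 1.10 (limma adjusted p = 0.22). With any 1 array left out it stayed between 0.48 and 0.81, the lower value without control replicate 3, and the adjusted p came to 0.069 when control replicate 2 was left out and to 0.65 when knockdown replicate 2 was.

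HDAC1 read 7.55, 7.999 and 6.87 in the controls against 7.77, 7.84 and 7.93 after knockdown. The knockdown values lay close together, inside the much wider range of the controls. The log2 fold change was 0.37 (95% interval -0.19 to 0.93, limma adjusted p = 0.49), and it was 0.07 without control replicate 3. HDAC3, the catalytic subunit of the NCOR and SMRT corepressors, read 5.67, 5.98 and 5.31 against 5.79, 5.95 and 6.05, so that the groups overlapped. Its log2 fold change was 0.28 (-0.16 to 0.71), and 0.11 without control replicate 3. HDAC8, which deacetylates the cohesin subunit SMC3, was the class I gene with the opposite sign, at 6.63, 6.68 and 6.35 in controls and 6.17, 6.27 and 6.32 after knockdown. The groups did not overlap, although control replicate 3 came within 0.1 of the highest knockdown array. Its log2 fold change was -0.30 (-0.66 to 0.06, limma adjusted p = 0.42), and -0.40 without control replicate 3 (adjusted p = 0.35).

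**Figure D2:**
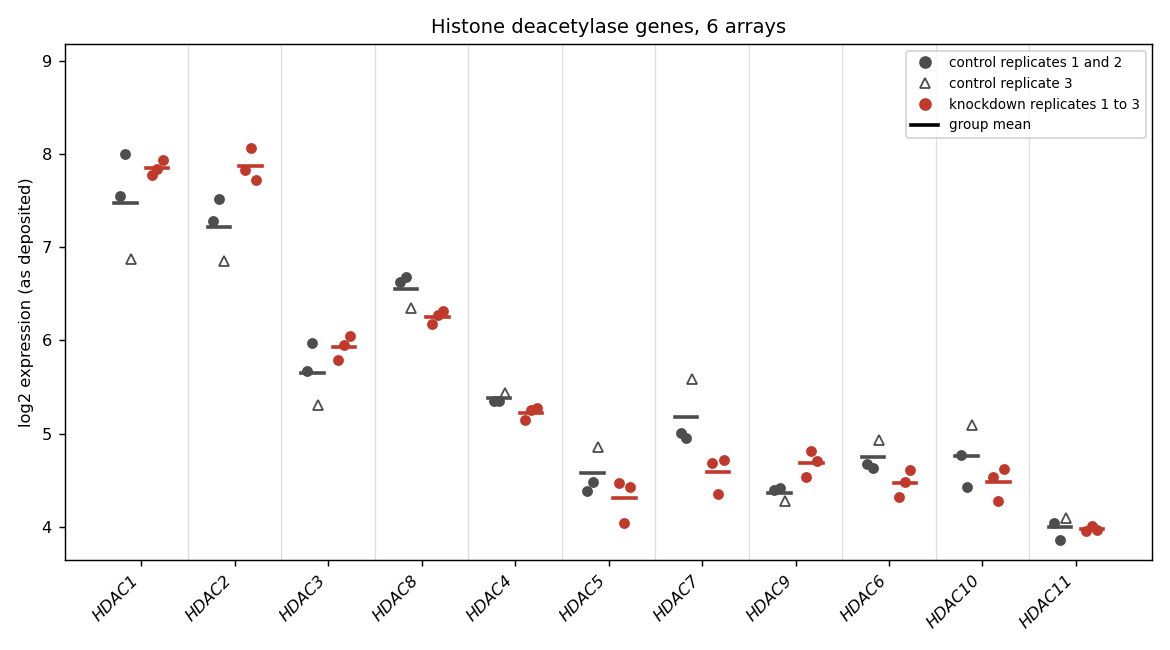
Log2 expression of the 11 measured HDAC genes in each array (y axis, log2 units as deposited; x axis, genes in the order class I, II and IV; grey, controls, with control replicate 3 as an open triangle; red, knockdown; bars, group means). HDAC2 and HDAC9 lie higher in all knockdown arrays and HDAC4, HDAC6, HDAC7 and HDAC8 lower, while control replicate 3 is the lowest control for HDAC1, HDAC2, HDAC3, HDAC8 and HDAC9.

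Of the 6 class II genes, 5 had negative values under each of these scalings, with a median of -0.27. All of them had a mean log2 value of 6 or less, where 7821 of 11501 genes were negative in the deposited values, with a median of -0.12. HDAC7, of the group that binds MEF2 transcription factors, read 5.01, 4.96 and 5.59 in the controls against 4.69, 4.35 and 4.72 after knockdown. All knockdown values lay below all controls, and control replicate 3 was the highest. The mean went from 5.18 ± 0.35 to 4.59 ± 0.20 (SD, n = 3), a log2 fold change of -0.60 (95% interval -1.06 to -0.14, limma adjusted p = 0.25), which was -0.40 without control replicate 3 (adjusted p = 0.44). HDAC9 of the same group was the class II gene with a positive value, at 4.40, 4.42 and 4.28 against 4.53, 4.82 and 4.70. The groups did not overlap, and the log2 fold change of 0.32 (-0.03 to 0.68, limma adjusted p = 0.39) was 0.28 without control replicate 3.

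The remaining class II genes differed less. HDAC4 read 5.35, 5.36 and 5.44 against 5.15, 5.25 and 5.28, lower without overlap (log2 fold change -0.16, interval -0.49 to 0.18). HDAC5 read 4.39, 4.49 and 4.86 against 4.47, 4.04 and 4.43, with overlap (log2 fold change -0.26, interval -0.69 to 0.17). These are regulators that shuttle out of the nucleus when phosphorylated. HDAC6, the cytoplasmic deacetylase of tubulin, read 4.68, 4.64 and 4.93 against 4.32, 4.48 and 4.62, again without overlap (log2 fold change -0.28, interval -0.65 to 0.10). HDAC10, which acts on polyamines, read 4.77, 4.44 and 5.09 against 4.54, 4.28 and 4.62 (log2 fold change -0.29, interval -0.73 to 0.15). Control replicate 3 was the highest control for all 4 genes, and without it the values were -0.13 for HDAC4, -0.12 for HDAC5, -0.19 for HDAC6 and -0.13 for HDAC10. HDAC11 of class IV, below the median of every array, read 4.05, 3.86 and 4.10 against 3.96, 4.01 and 3.97, with a log2 fold change of -0.02 (-0.37 to 0.32), positive after quantile normalization and after centring. The adjusted p of these 5 genes was 0.46 for HDAC6 and higher for the others.

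The 7 sirtuins included no gene with an unadjusted p under 0.05 (14.1% of all genes), and none in which the groups were separate (20% of all genes). SIRT4, a mitochondrial sirtuin below the median of every array, had the largest positive value. It read 3.55, 3.45 and 4.12 in the controls and 4.20, 4.37 and 3.75 after knockdown, a log2 fold change of 0.40 (95% interval -0.10 to 0.90, limma adjusted p = 0.43). Unlike in 44 of the 62 members, where it shrank, the difference grew without control replicate 3, to 0.60 (adjusted p = 0.29). SIRT6, a nuclear sirtuin with roles in DNA repair, had the lowest value, at 4.17, 4.46 and 4.97 against 4.29, 4.09 and 4.22. That difference of -0.33 (-0.80 to 0.13) was -0.12 without control replicate 3. SIRT1 had -0.21, and SIRT2, SIRT3, SIRT5 and SIRT7 lay between -0.05 and 0.06.

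Acetyltransferases, which counter the deacetylases, gave the narrowest range of log2 fold changes, from -0.30 to 0.13 over 7 genes. KAT8, which acetylates histone H4, read 5.00, 4.95 and 4.69 in controls and 4.59, 4.51 and 4.65 after knockdown, without overlap. Its log2 fold change was -0.30 (-0.66 to 0.06, limma adjusted p = 0.42), and -0.39 without control replicate 3 (adjusted p = 0.36). KAT2A, the GCN5 enzyme of the SAGA complex, was also lower without overlap (log2 fold change -0.19, limma adjusted p = 0.55). KAT7 had the largest positive value, 0.13 (-0.32 to 0.58), from 5.27, 5.39 and 4.81 to 5.19, 5.57 and 5.11, and it was -0.04 without control replicate 3. CREBBP, the CBP coactivator, had -0.03 (-0.37 to 0.31 as the 95% interval), with control and knockdown SDs of 0.06 and 0.04.

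Lysine methyltransferases, the most numerous class with 19 genes, held 12 positive and 7 negative values, where 39.3% of all genes were positive, and 4 of the 19 had an unadjusted p under 0.05, where 14.1% of all genes did. SETD7, which methylates histone H3 and several other proteins, had the highest log2 fold change of all members, 0.80 (95% interval 0.10 to 1.50, limma adjusted p = 0.30). Its controls, however, read 5.77, 5.74 and 4.44, and its knockdown arrays 6.26, 6.20 and 5.90. Control replicate 3 differed by -1.31 from the mean of the other controls, and without it the log2 fold change was 0.36 (adjusted p = 0.47). KMT2E, a divergent relative of the MLL methyltransferases, read 6.51, 6.68 and 5.78 against 6.77, 7.01 and 6.77, a log2 fold change of 0.53 (limma adjusted p = 0.34) that was 0.26 without that array. SETD9, below the median of every array, read 3.51, 3.59 and 3.06 against 3.81, 4.03 and 3.71. Its log2 fold change was 0.46 (limma adjusted p = 0.32), and 0.30 without control replicate 3. In all of these genes the groups were separate and control replicate 3 was the lowest array.

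KMT5A, the enzyme that places a single methyl group on histone H4 and acts in the cell cycle, had the most negative value of the class. It read 5.24, 4.97 and 5.51 in the controls against 5.01, 4.27 and 4.64 after knockdown, so that knockdown replicate 1 overlapped with the controls. The log2 fold change was -0.60 (-1.09 to -0.11, limma adjusted p = 0.28), and it ran from -0.78 to -0.41 with 1 array left out. All 6 SETD genes measured had a positive value, where 39.3% of all genes did, with a median of 0.39. After quantile normalization 5 of 6 did, and without control replicate 3 the median was 0.09. EZH2, the catalytic subunit of Polycomb repressive complex PRC2, had 0.30 (0.10 without control replicate 3), and its paralog EZH1 had 0.10. The MLL-type genes KMT2A, KMT2B, KMT2C and KMT2D had -0.04, -0.42, 0.34 and -0.17.

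Among 11 lysine demethylases, 6 had a positive and 5 a negative value, where 39.3% of all genes were positive. KDM1A (LSD1), the flavin-dependent demethylase that works with HDAC1 and HDAC2 in the CoREST complex, read 7.44, 7.80 and 6.58 in controls and 7.86, 7.99 and 7.82 after knockdown. The groups were separate by a narrow margin, since control replicate 2 nearly reached the knockdown arrays. Its log2 fold change of 0.62 (95% interval 0.02 to 1.21, limma adjusted p = 0.34) was 0.27 without control replicate 3 (adjusted p = 0.63). KDM4B, a demethylase of histone H3 and a coactivator of the estrogen receptor, read 4.67, 4.60 and 5.24 against 4.53, 4.24 and 4.54, a difference of -0.40 (limma adjusted p = 0.39), and -0.20 without that array. Its paralog KDM4C had 0.34, and 0.30 without it, with no overlap between groups. KDM4A and KDM4D had 0.13 and -0.18, with overlap.

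Of the 7 genes for DNA methylation 1 had a positive value and 6 a negative, where 39.3% of all genes were positive. After centring 3 were positive, where 50.1% of all genes were. TET2, which oxidises methylcytosine, read 4.53, 4.77 and 4.52 in the controls against 4.95, 5.21 and 4.86 after knockdown. It was higher without overlap, with a log2 fold change of 0.40 (0.02 to 0.78, limma adjusted p = 0.33) that was 0.36 without control replicate 3. DNMT3B, a de novo DNA methyltransferase, read 4.74, 4.62 and 4.79 against 4.40, 4.28 and 4.37. It was lower without overlap, at -0.37 on the log2 scale (-0.71 to -0.02, limma adjusted p = 0.33) and -0.33 without that array. In these 2 genes the difference depended little on control replicate 3. The control and knockdown SDs were 0.14 and 0.18 for TET2 and 0.09 and 0.06 for DNMT3B. With any 1 array left out, TET2 ran from 0.30, without knockdown replicate 2, to 0.48, and DNMT3B from -0.42 to -0.33. DNMT1, which maintains methylation after replication, had -0.07 (-0.41 to 0.27), and DNMT3A and DNMT3L had -0.0002 and -0.32. TET1 and TET3 had -0.09 each.

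**Figure D3:**
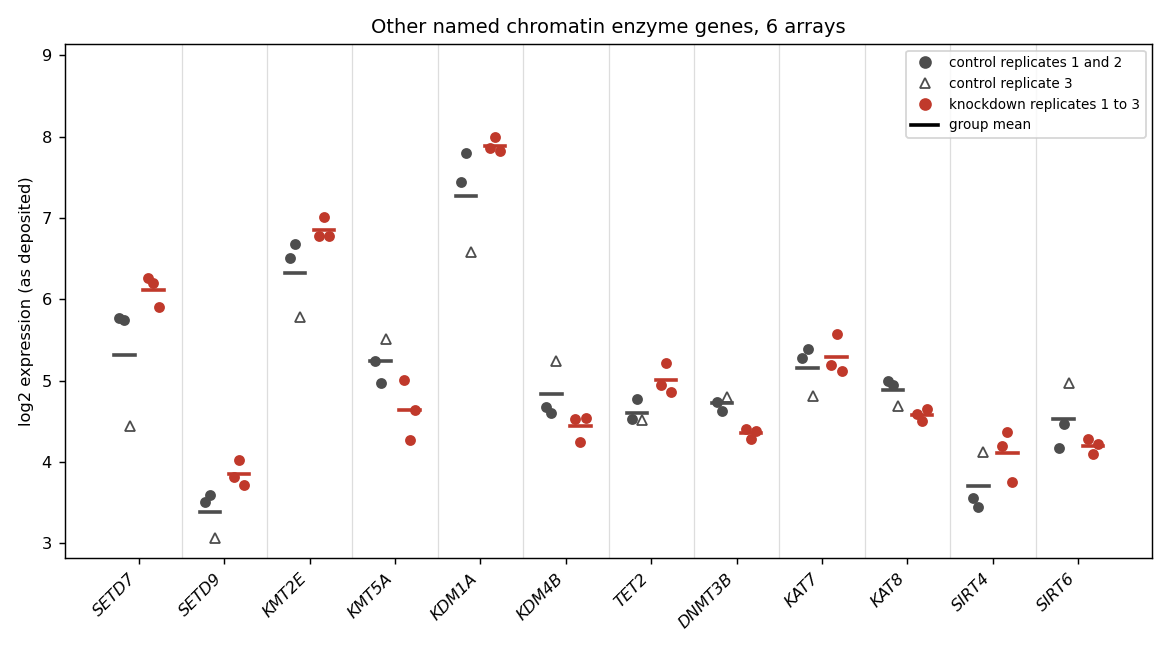
Log2 expression of the 12 other named genes in each array (y axis, log2 units as deposited; grey, controls, with control replicate 3 as an open triangle; red, knockdown; bars, group means). Control replicate 3 is far from the other controls for SETD7 at 4.44 and KDM1A at 6.58, whereas it lies near them for TET2 and DNMT3B.

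How far control replicate 3 entered these differences was measured directly. In all 18 members with a mean log2 value above 6 it was the lowest of the 3 controls, with a median difference of -0.57 from the mean of the other controls (range -1.05 to -0.09). Of all 2731 genes above 6 it was the lowest control in 2040, and the corresponding median was -0.35. In the 44 dimmer members the median was 0.10, against 0.22 over the 11501 dimmer genes. The log2 fold change had a median of 0.26 in the 18 brighter members and -0.11 in the 44 dimmer, beside 0.18 and -0.12 over all brighter and dimmer genes. Without control replicate 3 the members' medians were 0.07 and -0.10. The absolute log2 fold change was smaller without this array in 44 of the 62 genes and larger in 18, and the sign turned in 12. A log2 fold change of at least 0.5 in size was seen in 6 genes with all arrays and in 1 without it, the dim gene SIRT4. These counts of size and sign were not made over all genes. Without control replicate 3, 6 members had an unadjusted p under 0.05 (9.68%, against 10.7% of all genes in that fit). Of these, 3 were among the 9 above, namely HDAC2, HDAC7 and DNMT3B. The others were HDAC8, KAT8 and SIRT4, and none passed the adjusted test.

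**Figure D4:**
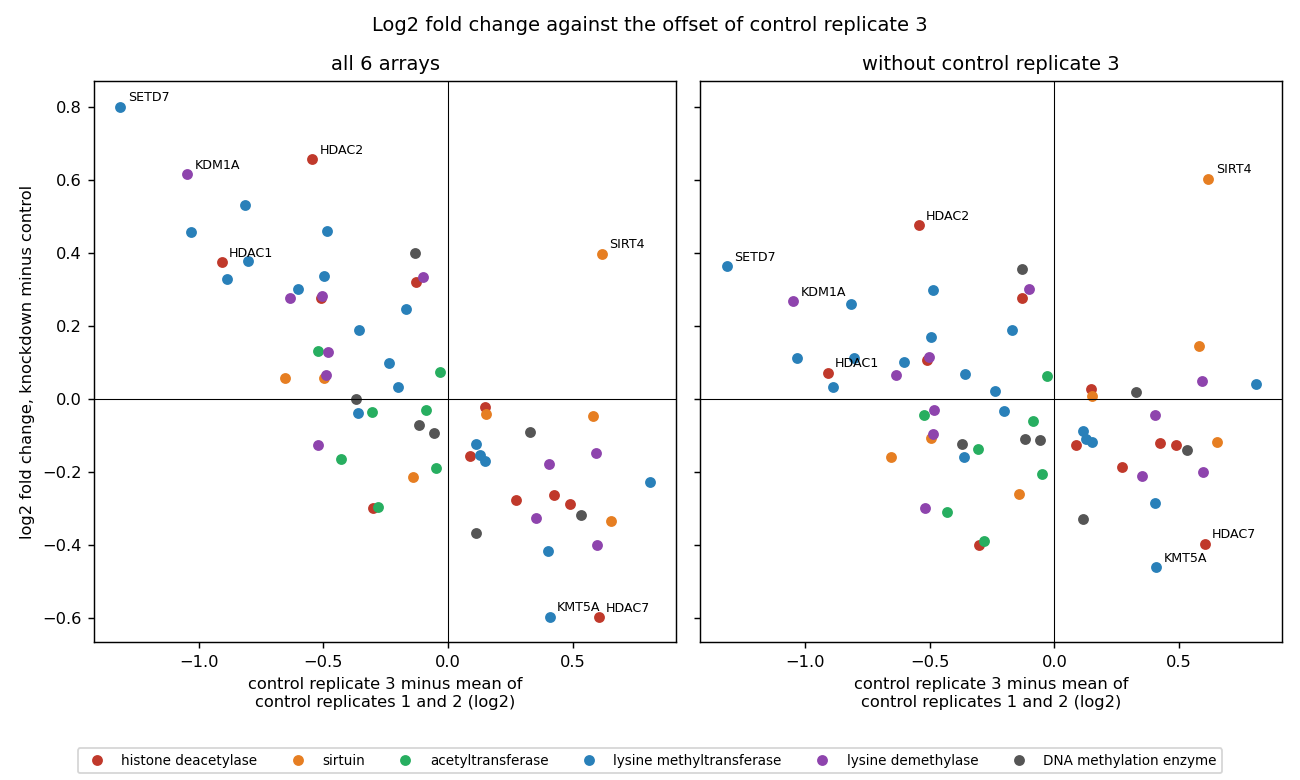
Log2 fold change of each of the 62 genes (y axis, log2 units; left, all 6 arrays; right, without control replicate 3) against the difference of control replicate 3 from the mean of control replicates 1 and 2 (x axis, log2 units), coloured by class. On the left, 49 of the 62 genes have opposite signs on the axes, which share control replicate 3, and on the right the largest value falls from 0.80 to 0.60.

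The 62 genes lay on 19 chromosomes, with at most 6 on any of them, namely chromosomes 11, 12 and 19. HDAC2 is on chromosome 6, HDAC1 and KDM1A on 1, HDAC7 and KMT5A on 12, and HDAC6 and HDAC8 on X. Each member but KMT2A was read by a single row with its symbol alone. Another 11 rows held a symbol of the same families together with that of another gene, among them EP300, NSD2, KDM6B and a row shared by KDM5B and COX7C. That shared row read 5.24, 5.52 and 4.55 in controls and 5.80, 6.15 and 5.95 after knockdown, a log2 fold change of 0.86 (adjusted p = 0.33 by limma over all rows), and which gene it measures cannot be told. Some of the 11 rows held a member's symbol, with log2 fold changes of -0.07 for HDAC10 with MAPK12 and 0.12 for KAT5 with RNASEH2C. The row of KMT2A with MLLT1 had -0.29, and that of KMT2C with BAGE2 and BAGE5 had 0.38.

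Partner subunits and neighbouring families were read from the limma fit over all genes tested. There 14.1% of all genes had an unadjusted p under 0.05, and the median log2 fold change over all genes was -0.08. None of the 23 measured partners of deacetylases passed (limma, 3 at an unadjusted p under 0.05), with a median log2 fold change of -0.10. The SIN3A scaffold gene read 5.48, 5.44 and 5.18 against 4.87, 5.08 and 4.89 (log2 fold change -0.42, adjusted p = 0.30), and SAP18 of the SIN3 complex, on chromosome 13, had -0.43 (adjusted p = 0.30). None passed among 11 partners of MLL-type complexes (1 at an unadjusted p under 0.05), where the host cell factor HCFC2 had 0.53 and the coactivator NCOA6 -0.28, nor among 18 Polycomb partners (2), where MTF2 had 0.70 and CBX7 -0.45. MTF2, which guides PRC2 to DNA, again had a low control replicate 3, at 5.46 beside 6.23 and 6.79.

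Of 27 acetyltransferase partners and acetyl readers none passed (limma, 3 at an unadjusted p under 0.05, where 14.1% of all genes were). TADA1, a subunit of SAGA, read 4.82, 4.97 and 4.48 against 5.33, 5.46 and 5.46, a log2 fold change of 0.66 (adjusted p = 0.16), and SUPT3H of the same complex had 0.63 (adjusted p = 0.30). None of 11 readers and partners of DNA methylation passed (3), with 0.56 for the glycosyltransferase OGT, which binds TET enzymes, and -0.59 for the stress gene GADD45B. In a list of 37 other histone enzymes none passed either (7 at an unadjusted p under 0.05). Among the 37 were 3 members, the KMT5 genes above. The lowest adjusted p there was 0.094, for the coactivator NCOA2 on chromosome 8 (log2 fold change 0.73), followed by the hydroxylase JMJD6 at 0.63 (adjusted p = 0.20). Among 16 measured genes often followed under HDAC inhibition, the cyclin D1 gene CCND1 passed the test. It fell by 0.93 on the log2 scale, from 8.44, 8.60 and 8.32 to 7.57, 7.43 and 7.56 (limma adjusted p = 0.034), without overlap between the groups. Its adjusted p was 0.16 with control replicate 1 left out, and 0.14, 0.19 and 0.12 with knockdown replicate 1, 2 or 3 left out. CCND1 is not a chromatin enzyme. It was the 1 of the 16 that passed, where 0.597% of all genes did, and 4 had an unadjusted p under 0.05, where 14.1% of all genes did. The list was chosen with earlier results of these data known, so these shares are a description only.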

How the data were processed

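Amplified, biotin-labelled RNA was read on Affymetrix whole-transcript arrays. The values are log2 expression levels that the authors computed with Partek Genomics Suite and deposited as a table with a column for each array. How background was corrected and arrays were normalized, and the software's version, were not given in the sources used here. Arrays of this kind tend to understate fold changes of dim genes. The table held 22011 rows, of which 14432 carried exactly 1 gene symbol in the platform annotation. The brightest row was kept for each gene, which left 14232 genes. Chromosomes came from RefSeq (GRCh38.p14), and since the files name no build, no positions are given.

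Sample titles gave the groups and replicate numbers. Knockdown was compared with control in limma (version 3.58.1, R version 4.3.3), with a mean for each group, moderated variances and p-values adjusted by Benjamini-Hochberg across all genes, at a threshold of 0.05. The fit was tested on simulated data whose noise was independent between genes and arrays. That test does not cover an offset shared by many genes, as in control replicate 3. Values in every array are given for HDAC genes, for members with an unadjusted p under 0.05 and for the largest rise and fall of each class, and up to 4 genes are named from each list of partners. The members and lists were chosen with earlier results of these data known. Alternatives averaged the rows of a gene, fitted all rows, dropped the lowest 30% of genes, quantile normalized or median centred the columns, used a trended robust prior, blocked on the replicate number, or left out each array in turn.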

Additional observations from a re-analysis of the deposited data

How the results depend on the processing

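No chromatin enzyme gene passed the adjusted test under any of the 13 alternatives. The lowest adjusted p of a member was 0.061, for HDAC2 with the replicate number as a block, and ran from 0.069 to 0.65 with 1 array left out. The number of changed genes in the whole table, 85 as deposited, was 19 when all rows were fitted, 41 after median centring, 364 with the replicate block, and between 12 and 233 with 1 array left out. Sample titles give a replicate number and state no pairing. Deviations of same-numbered samples from their group means correlated at -0.10, 0.47 and 0.31 for replicates 1, 2 and 3. Control replicates 2 and 3 correlated best with the knockdown array of their own number, and control replicate 1 with knockdown replicate 2, at 0.20. Whether same-numbered samples were handled together was not tested. The members' median log2 fold change, -0.03 as deposited, was 0.048 after median centring. HDAC11 turned from -0.023 to 0.063 after quantile normalization and to 0.057 after centring, and ran from -0.095 to 0.026 with 1 array left out, positive without control replicate 3. KAT7 ran from -0.043 to 0.25, negative without control replicate 3 and without knockdown replicate 2. MTDH and CCND1 kept their direction but missed the threshold when all rows were fitted (adjusted p = 0.0997 and 0.10), after centring (0.097 and 0.085) and in 4 of 6 fits without 1 array. The causes were not tested. Of the 62 members, 46 kept their sign in all 6 fits without 1 array. Signal over background could not be read, since no detection values were used. The mean lay above every array median in 38 of the 62 members, and below the highest array lower quartile in 3.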
